A study of Mus musculus with 24 samples.

Results

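The endothelial genes and neuropilins described here are 9 genes chosen by their symbols, Pecam1, Cdh5, Kdr, Flt1, Tek, Tie1, Eng, Nrp1 and Nrp2. The table held 12091 genes, and 8 of the 9 were among them: 6 endothelial genes and both neuropilins. Tek was not in the table and was skipped. RNA was sequenced from 24 samples in 4 mouse breast cancer experiments, each with 3 control samples and 3 samples in which pleiotrophin (PTN), a secreted heparin-binding cytokine, was blocked or depleted. The comparisons ask whether RNA levels differ when PTN is blocked in tumors or depleted in cancer cells.

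In the first experiment, 4T1 mammary carcinoma cells were implanted into the mammary fat pad of female BALB/c mice aged 8 wk. In the second, tumors arose in FVB/N females that carry the MMTV-PyMT transgene, in which a mammary tumor virus promoter drives the polyoma middle T antigen in mammary epithelium, and treatment started at 8 wk of age. Mice of both models received either C44, a mouse IgG that served as control, or 3B10, a mouse antibody against PTN, each at 15 mg/kg and 2 doses per week. The tumors were whole pieces that hold cancer cells, vessels, leukocytes and fibroblasts together, so fewer cells of a type and less RNA per cell cannot be told apart. The other experiments used cultured E0771 mammary carcinoma cells and E0771-LG cells, a line derived from a lung metastasis of E0771, with no antibody. In both lines a Ptn short hairpin (shPTN) was compared with a control hairpin against EGFP (shCtrl). The knockdown rests on 1 hairpin construct, and the cells were puromycin-selected populations. The authors describe 3 replicates in each group, and the p-values below measure the spread between these samples.

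Blood vessels are lined by endothelial cells that sense vascular endothelial growth factors (VEGF) through the receptor tyrosine kinases Kdr and Flt1 and angiopoietins through the Tie receptors. Cdh5 and Pecam1 hold neighboring endothelial cells together, and Eng is a co-receptor for ligands of the TGF-β and BMP family. Neuropilins are co-receptors for VEGF and for class 3 semaphorins, and they occur on many cell types besides endothelium, tumor cells among them.

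The MMTV-PyMT and cell line values were log2 CPM, that is, read counts scaled to the total reads of the library, from which whole reads were recovered, at a depth of 15.63 to 21.12 M reads. The 4T1 values were log2 values on a scale normalized for gene length, and their depth is unknown. Levels in 4T1 tumors are compared only with each other, while differences between treatments and deviations from the mean of a model are also set beside those of MMTV-PyMT tumors. All tests below are from limma over every gene tested in the comparison, and a gene counts as past the threshold at an adjusted p under 0.05.

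The start regions of 4 genes are printed because 3 of them, Tie1, Kdr and Eng, varied together between tumors, and because the results of the knockdown turn on Eng and Nrp2. RefSeq promoter windows of 300 bases on build GRCm38.p6 matched 6 of the 8 genes, Kdr, Flt1, Tie1, Eng, Nrp1 and Nrp2, and not Pecam1 or Cdh5. The windows lay at chr4:118489800-118490099 on the minus strand for Tie1, at chr2:32646345-32646644 on the plus strand for Eng, at chr5:75978406-75978705 on the minus strand for Kdr and at chr1:62703067-62703366 on the plus strand for Nrp2. In the windows of Tie1 and Eng the capitals mark the extended ETS core AGGAAG or its reverse complement CTTCCT, and in those of Kdr and Nrp2 they mark the Sp1 box GGGCGG or its reverse complement CCGCCC.
Tie1: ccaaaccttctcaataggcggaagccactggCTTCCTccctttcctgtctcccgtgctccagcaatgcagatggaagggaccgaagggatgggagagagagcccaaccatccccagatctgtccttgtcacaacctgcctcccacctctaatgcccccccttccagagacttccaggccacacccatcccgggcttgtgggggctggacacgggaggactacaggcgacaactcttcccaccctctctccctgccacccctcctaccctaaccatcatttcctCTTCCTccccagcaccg
Eng: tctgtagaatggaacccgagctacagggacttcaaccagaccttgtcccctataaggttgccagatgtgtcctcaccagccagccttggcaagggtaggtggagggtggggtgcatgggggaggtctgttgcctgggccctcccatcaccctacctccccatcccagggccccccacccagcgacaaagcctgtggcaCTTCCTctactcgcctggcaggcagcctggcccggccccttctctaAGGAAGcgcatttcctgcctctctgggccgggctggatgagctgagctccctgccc
Kdr: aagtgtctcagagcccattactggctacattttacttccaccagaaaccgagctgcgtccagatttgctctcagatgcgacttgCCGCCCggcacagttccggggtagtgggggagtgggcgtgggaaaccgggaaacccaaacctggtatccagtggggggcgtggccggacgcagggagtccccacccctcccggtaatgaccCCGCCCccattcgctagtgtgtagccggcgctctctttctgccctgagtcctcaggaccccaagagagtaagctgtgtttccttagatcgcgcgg
Nrp2: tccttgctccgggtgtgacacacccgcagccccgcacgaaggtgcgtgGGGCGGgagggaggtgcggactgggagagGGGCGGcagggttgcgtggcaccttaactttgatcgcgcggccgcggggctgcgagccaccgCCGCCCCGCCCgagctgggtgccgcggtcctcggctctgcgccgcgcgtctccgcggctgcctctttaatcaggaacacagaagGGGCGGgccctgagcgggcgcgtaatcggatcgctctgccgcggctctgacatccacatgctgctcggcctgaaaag

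ETS factors are a family of transcription factors used widely in endothelial cells, and Sp1 binds GC-rich promoters in many cell types. AGGAAG on either strand occurred 2 times in each of the Flt1, Tie1 and Eng windows, 1 time in Nrp1 and 0 times in Kdr and Nrp2. GGGCGG on either strand occurred 5 times in Nrp2, where a pair of the matches share a base, 3 times in Flt1, 2 times in Kdr, 1 time in Nrp1 and 0 times in Tie1 and Eng. Matches of different words did not overlap in any of the 6 windows. Of 32851 promoter windows, 35.4% held AGGAAG and 35.7% held GGGCGG on either strand. The TATA box TATAAA was in the Flt1 window alone among the 6 and in 13.6% of all windows, whereas the GATA word AGATAA (11.2% of all windows) and the CAAT box CCAAT (37.4%) were in none of the 6. The GC content ran from 60.3% in Tie1 to 70.7% in Flt1 and Nrp2. These matches describe letters and not binding.

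In the 4T1 tumors, no endothelial gene or neuropilin differed between 3B10 and C44 beyond the spread between tumors. The receptor gene Kdr had log2 values of 2.84, 3.97 and 3.08 in the 3 C44 tumors and 2.69, 3.94 and 2.63 in the 3 3B10 tumors. Flt1, which encodes the other VEGF receptor, had values of 5.14, 4.94 and 4.20 with C44 and 4.24, 4.44 and 4.64 with 3B10. For Kdr the second tumor of each group stood about a log2 unit above the others, and for Flt1 it did not; the groups overlapped for both genes.

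The orphan receptor gene Tie1 was at 3.23, 4.56 and 3.92 with C44 and at 3.42, 4.62 and 3.36 with 3B10 in 4T1 tumors. Cdh5, which encodes VE-cadherin, was at 5.14, 6.59 and 5.88 with C44 and at 5.45, 6.25 and 5.11 with 3B10. Pecam1, which encodes the junction protein CD31, was at 5.12, 6.29 and 5.30 with C44 and at 5.04, 5.79 and 4.68 with 3B10. As for Kdr, the second tumor was the highest of its group for all 3 genes, under both antibodies. Eng values lay between 6.29 and 6.96 in the 6 tumors, with less spread than those of the junction genes.

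The neuropilin gene Nrp1 had values of 5.62, 5.94 and 6.04 in C44 tumors and 4.89, 6.32 and 5.27 in 3B10 tumors of the 4T1 model. Nrp2 had values of 6.45, 6.37 and 5.29 with C44 and 5.68, 5.76 and 6.18 with 3B10. The groups overlapped for both neuropilins, and the tumor that was lowest for Nrp2 among C44 tumors was the highest for Nrp1.

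The log2 difference of 3B10 minus C44 was below 0 for 8 of 8 genes in 4T1 tumors, from −0.40 for Pecam1 (95% interval −1.27 to 0.47) to −0.10 for Tie1 (−1.10 to 0.90), with a median of −0.24 beside 0.01 over all genes. By limma 0 of 8 passed the threshold, as did 0 of the 11467 genes tested (0%), and at an unadjusted p under 0.05 the count was 0 of 8 beside 6.27% of all genes. Groups did not overlap for 0 of the 8 beside 11.3% of all genes, of which 6.87% were higher and 4.42% lower with 3B10. The sign of 4 of these differences rests on single tumors. Without the second C44 tumor those of Cdh5, Kdr, Tie1 and Nrp2 were 0.10, 0.13, 0.22 and 0.00414, without the third 3B10 tumor those of Kdr and Tie1 were 0.02 and 0.12, without the first 3B10 tumor that of Tie1 was 0.09, and without the first C44 tumor that of Nrp2 was 0.05.

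**Figure D1:**
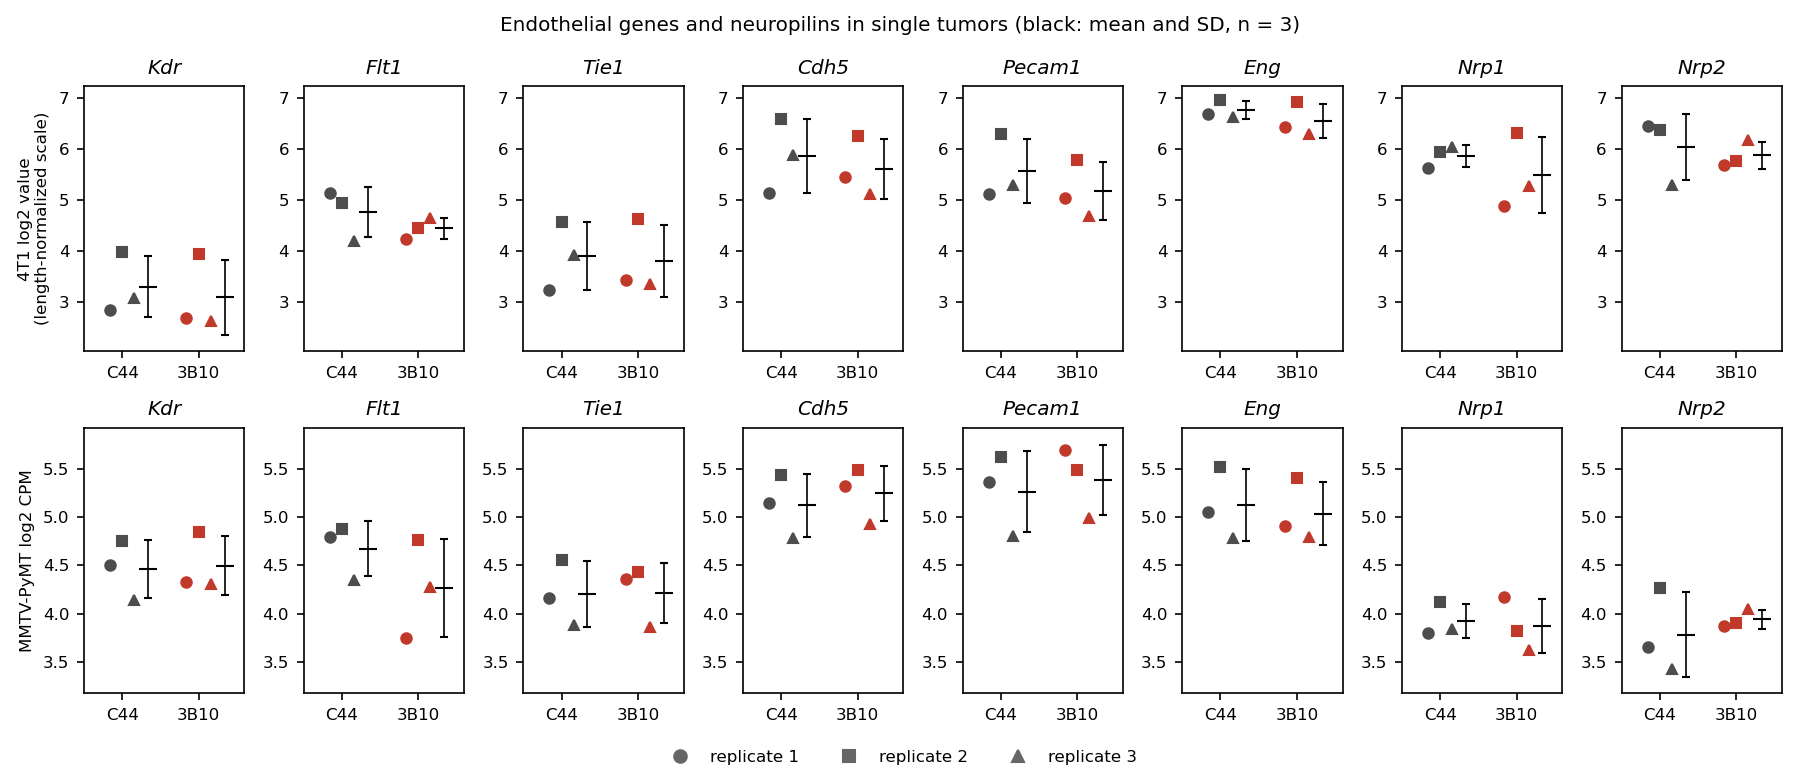
Log2 value of each of the 8 genes in each tumor (points, shaped by replicate number), with the mean and SD of each group of 3 in black; 4T1 tumors above, MMTV-PyMT tumors (log2 CPM) below, C44 in gray and 3B10 in red. C44 and 3B10 tumors overlap in every panel, and the spread within groups is wide, as for Cdh5 in 4T1 C44 tumors, 5.14 to 6.59.

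The MMTV-PyMT tumors gave a similar picture for the VEGF receptors. Kdr had log2 CPM of 4.50, 4.75 and 4.14 with C44 and 4.33, 4.85 and 4.31 with 3B10. Flt1 was at 4.80, 4.88 and 4.35 with C44 and at 3.75, 4.77 and 4.28 with 3B10. The first 3B10 tumor was the lowest for Flt1, with 218 reads, while its Kdr value lay among those of the other tumors.

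Tie1 lay between 3.86 and 4.56 log2 CPM in the 6 MMTV-PyMT tumors. Cdh5 was at 5.15, 5.44 and 4.79 with C44 and at 5.33, 5.49 and 4.93 with 3B10. Pecam1 was at 5.37, 5.63 and 4.81 with C44 and at 5.70, 5.49 and 4.99 with 3B10. The third tumor of each group was the lowest for Tie1, Cdh5 and Pecam1.

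Eng in MMTV-PyMT tumors was at 5.06, 5.53 and 4.79 with C44 and at 4.91, 5.41 and 4.80 with 3B10. Nrp1 was at 3.80, 4.12 and 3.84 with C44 and at 4.17, 3.82 and 3.62 with 3B10. Nrp2 was at 3.65, 4.27 and 3.42 with C44 and at 3.87, 3.90 and 4.05 with 3B10. The C44 values of Nrp2 reached both above and below the 3 values with 3B10, so the groups overlapped for all 8 genes.

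Of the 8 differences of 3B10 minus C44 in MMTV-PyMT tumors, 5 were above 0 and 3 below, but those of Kdr and Tie1 turned from 0.03 and 0.02 to −0.03 and −0.04 with quantile normalization and to −0.02 and −0.03 with median-of-ratios scaling. The largest in size was −0.41 for Flt1 (95% interval −1.06 to 0.24), and the median was 0.03 beside 0.05 over all genes. By limma 0 of 8 passed the threshold and 0 of all 11361 genes did (0%). At an unadjusted p under 0.05 the count was 0 of 8 beside 2.7% of all genes, and groups did not overlap for 0 of 8 beside 8.34% of all genes. Flt1 was the 1 gene whose difference kept its sign whichever tumor was left out. Without the third C44 tumor the differences of Pecam1, Cdh5, Kdr, Tie1 and Nrp2 were −0.11, −0.05, −0.13, −0.14 and −0.03, without the first C44 tumor that of Tie1 was −0.0029, and without the second C44 tumor those of Eng and Nrp1 were 0.11 and 0.04. Without the first 3B10 tumor those of Pecam1 and Tie1 were −0.04 and −0.05, without the second those of Kdr and Tie1 were −0.14 and −0.09, and without the third those of Eng and Nrp1 were 0.03 and 0.07. Whether the effect of 3B10 differs between the tumor models was tested with an interaction term, and by limma 0 of 8 genes passed, as did 0 of 11938 genes (0%); at an unadjusted p under 0.05 it was 0 of 8 and 2.68% of all genes.

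Levels per length could be compared between genes in the MMTV-PyMT tumors. In C44 tumors the RPKM (CPM per kilobase of exon) was 8.82 for Eng, 8.46 for Cdh5, 6.37 for Pecam1, 3.8 for Tie1, 2.48 for Kdr, 1.92 for Flt1, 1.56 for Nrp1 and 1.2 for Nrp2. Eng and the junction genes had the highest of these means and the neuropilins the lowest, but Flt1 and Nrp1 overlapped between tumors, and with 3B10 their means were 1.48 and 1.51. Within single C44 tumors Flt1 was above Nrp1 in all 3 (2.06, 2.18 and 1.51 against 1.42, 1.78 and 1.47). In the first 3B10 tumor Flt1 was below Nrp1 (0.991 against 1.83). Nrp1 was above Nrp2 (1.06, 1.63 and 0.9) in each C44 tumor, and below it in the third 3B10 tumor (1.25 against 1.4). Eng was below Cdh5 in the first C44 tumor (8.22 against 8.45) and above it in the second (11.4 against 10.3). The log2 SDs between C44 tumors were 0.38 for Eng, 0.32 for Cdh5, 0.17 for Nrp1 and 0.44 for Nrp2. Differences between genes were not tested.

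Several of the endothelial genes varied together from tumor to tumor. After each gene was centered on the mean of the 6 tumors of its model, the mean deviation of the 6 endothelial genes was 0.65 in the second 4T1 C44 tumor and 0.43 in the second 4T1 3B10 tumor. The other 4T1 tumors were at −0.21 and −0.07 with C44 and at −0.36 and −0.45 with 3B10. In MMTV-PyMT tumors the deviations were 0.05, 0.34 and −0.33 with C44 and −0.07, 0.28 and −0.27 with 3B10. Tumors high for the endothelial genes were thus found under both antibodies. Replicate numbers were not shown to pair tumors of different groups.

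Over these 12 centered tumors, which share the models and the libraries, Pearson's r was 0.97 between Cdh5 and Tie1, 0.94 between Cdh5 and Pecam1, 0.94 between Kdr and Tie1 and 0.83 between Kdr and Eng. Flt1 had lower values, with r of 0.05 to Cdh5, 0.05 to Tie1, 0.14 to Pecam1, 0.29 to Kdr and 0.55 to Eng. Nrp1 had r of 0.77 to Tie1, and its r to Kdr was 0.80 among 4T1 tumors and 0.19 among those of the MMTV-PyMT model. Nrp2 had r of 0.60 to Flt1 and −0.05 to Nrp1, and its r to Tie1 was −0.15 among 4T1 tumors and 0.56 among MMTV-PyMT tumors. The r of Flt1 was 0.14 to Kdr and 0.32 to Eng in the 6 4T1 tumors and 0.69 and 0.71 in the 6 MMTV-PyMT tumors. The r of Flt1 to Nrp2 was 0.95 in the 6 4T1 tumors and 0.20 in the 6 MMTV-PyMT tumors.

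**Figure D2:**
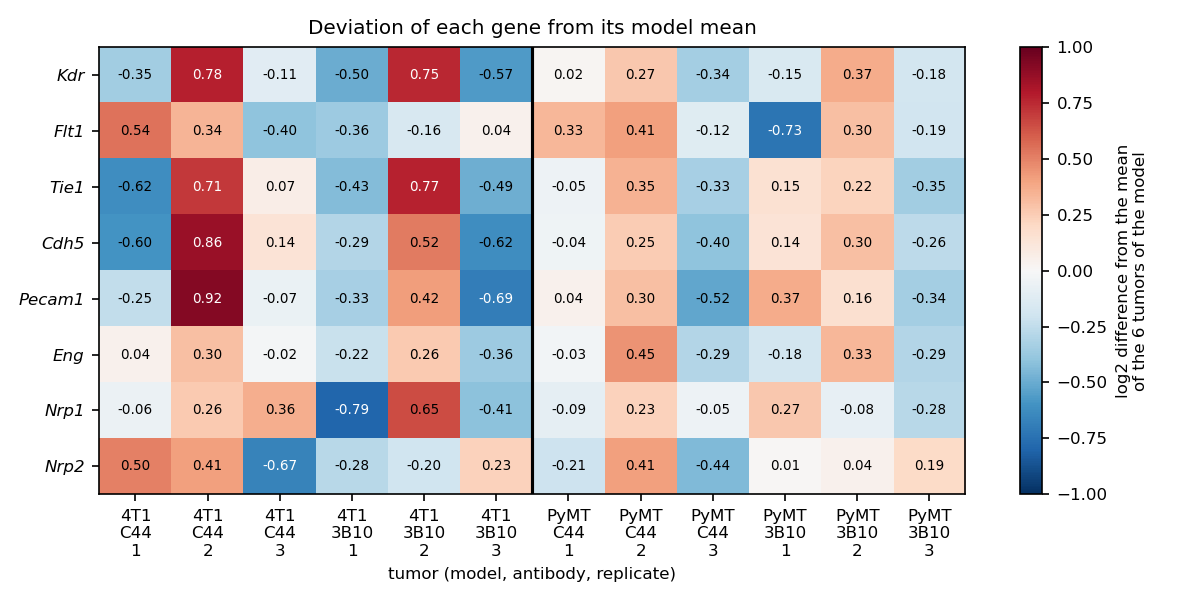
Log2 difference of each gene (vertical) from its mean over the 6 tumors of the model, in each of the 12 tumors (horizontal), from blue (below the mean) to red (above). The second 4T1 tumor of each antibody is red for Kdr, Tie1, Cdh5 and Pecam1, from 0.42 to 0.92, while Flt1 and Nrp2 are above the mean in the second C44 tumor and below it in the second 3B10 tumor.

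Among 10882 genes outside the 8, the 10 most like the mean of the endothelial genes over the 12 tumors were Mmrn2 (r = 0.962), Notch4 (0.956), Cd93 (0.95), Col4a2 (0.947), Pskh1 (0.932), Col4a1 (0.923), Notch3 (0.919), Ecscr (0.894), Esam (0.892) and Adgrl4 (0.89). Of these, 6 were on a list of other endothelial genes, namely Mmrn2, Notch4, Cd93, Ecscr, Esam and Adgrl4. Col4a1 and Col4a2 encode basement membrane collagen, and Notch3 is a receptor of mural cells. The other endothelial genes had a median r of 0.76 to the mean of the endothelial genes, beside 0.10 over all genes. For Nrp1 the 5 most alike were Ppfia4 (r = 0.92), Fbln7 (0.909), Fli1 (0.894), Arap1 (0.891) and Cx3cr1 (0.889), and for Nrp2 they were Apaf1 (0.9), Armh3 (0.897), Fyttd1 (0.895), Cdk6 (0.889) and Smad2 (0.888). None of these 10 was on the lists described here.

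The wider vessel lists had small medians with 3B10 in both tumor models. Of 50 other endothelial genes, 36 were in the table and 35 were tested in each tumor model, and 26 were lower in 4T1 tumors with a median of −0.19, while 18 were higher in MMTV-PyMT tumors with a median of 0.02. The levels of Ephb4, a receptor of the ephrin system, averaged 6.97 with C44 and 6.88 with 3B10 in 4T1 tumors and 8.17 and 8.02 in MMTV-PyMT tumors. Cgnl1 averaged 6.9 and 6.71 and Cav1 6.39 and 5.91 in 4T1 tumors, with overlapping groups for both. In MMTV-PyMT tumors Cgnl1 averaged 8.98 and 8.83 and Podxl 6.28 and 6.18, also with overlap. Of the ligands of these receptors, 13 were tested in each model with medians of −0.10 and 0.08. Vegfa, the main VEGF, was at 6.79 ± 0.35 log2 CPM with C44 and 6.13 ± 0.98 with 3B10 in MMTV-PyMT tumors (SD, n = 3). Co-receptors and signaling partners had medians of −0.09 over 19 genes and −0.07 over 21 genes, and mural cell markers, which mark the pericytes and smooth muscle around vessels, had medians of −0.15 and −0.14 over 12 genes in both. By limma 0 genes of these 4 lists passed the threshold in either model. At an unadjusted p under 0.05 there were 0 other endothelial genes in either model, 0 and 1 ligands, 0 and 1 partners and 1 and 0 mural genes in 4T1 and MMTV-PyMT tumors, beside 6.27% and 2.7% of all genes.

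Leukocyte, epithelial and muscle markers had medians further from 0 than the endothelial genes in 4T1 tumors. Of 23 leukocyte markers 20 were in the table, and all 20 were lower with 3B10, with a median of −0.57, 11 at an unadjusted p under 0.05 (beside 6.27% of all genes), 8 with groups that did not overlap (beside 4.42% of all genes lower) and 0 past the threshold in limma. Their summed level was 16147, 12916 and 16312 in the C44 tumors and 8437, 12552 and 8174 in the 3B10 tumors, with Lyz2 the most abundant and none at 0. Of 13 epithelial markers 12 were tested, and all 12 were higher with 3B10, with a median of 0.50, 6 at an unadjusted p under 0.05 (beside 6.27% of all genes), 5 without overlap (beside 6.87% of all genes higher) and 0 past the threshold in limma. Their summed level was 3587, 4039 and 4008 with C44 and 5573, 5445 and 5623 with 3B10, with Krt18 the most abundant and Krt5 at 0 in the first C44 and the third 3B10 tumor.

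Of 12 skeletal muscle markers 8 were in the 4T1 values and 7 were tested, all higher with 3B10, with a median of 2.73, 7 at an unadjusted p under 0.05 (beside 6.27%), 6 without overlap (beside 6.87% higher) and 0 past the threshold in limma. Their sum was 35.1, 32.4 and 64.9 with C44 and 90.7, 263 and 428 with 3B10, with Tnni2 the most abundant in the C44 tumors and Myh4 at 0 in replicates 2 and 3 of them. The part of these cell types in the differences of the endothelial genes was not tested. Fibroblast markers had a median of 0.26 over 14 genes, 2 at an unadjusted p under 0.05 and 0 past the threshold in limma, and adipocyte markers one of 0.01 over 4 genes, 0 at an unadjusted p under 0.05 and 0 past the threshold.

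In MMTV-PyMT tumors 9 of 18 leukocyte markers tested were higher with a median of 0.00, 4 of 13 epithelial markers were higher with a median of −0.06, and 1 of 6 muscle markers was higher with a median of −0.52. Fibroblast markers had a median of −0.17 over 14 genes and adipocyte markers one of 0.38 over 4 genes. By limma 0 genes of these 5 lists passed the threshold there, and 0 leukocyte, 1 epithelial, 0 muscle, 1 fibroblast and 2 adipocyte markers had an unadjusted p under 0.05, beside 2.7% of all genes. In the cultured lines C1qa, Tyrobp and S100a9 were among the leukocyte markers at 0 reads in all 12 samples, while others were present, with Itgb2 the most abundant in E0771 shCtrl cells (19.4, 18.3 and 15.2 CPM) and Laptm5 in E0771-LG shCtrl cells (87.9, 82.6 and 84.6 CPM).

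In the cell lines, where counts of genes that rose or fell are of those past the threshold, Ptn itself showed the knockdown. Its log2 CPM in E0771 cells was 2.90, 2.18 and 2.28 with shCtrl and −0.63, 0.25 and 0.53 with shPTN. In E0771-LG cells it was 3.65, 4.51 and 3.74 with shCtrl and 1.42, 0.98 and 1.38 with shPTN. The shPTN values lay below all control values of the same line, and Ptn fell 5.28-fold in E0771 (adjusted p = 0.00159, limma) and 6.52-fold in E0771-LG (adjusted p = 6.3e-05, limma).

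In the cultured cells Eng and Nrp2 were abundant, and Kdr, Cdh5, Pecam1, Flt1 and Nrp1 were at low levels. Eng averaged 51.1 RPKM in E0771 shCtrl cells, Nrp2 8.56 and Tie1 1.37, while Kdr was at 0.103, Cdh5 at 0.0906, Pecam1 at 0.0687, Flt1 at 0.0667 and Nrp1 at 0.00334. Nrp1 had 0, 2 and 0 reads in the E0771 shCtrl samples, 2, 0 and 0 with shPTN, 5, 6 and 6 in E0771-LG shCtrl and 0, 1 and 1 in E0771-LG shPTN. Reads of Pecam1 ranged from 1 to 24, of Kdr from 3 to 22 and of Cdh5 from 1 to 48 over the 12 samples. Tie1 lay between these and Eng. Kdr, Pecam1 and Nrp1 were too low for the filter in every comparison of cells, and with no filter Nrp1 passed the threshold with shPTN in E0771-LG (−2.59, adjusted p = 0.0132) and Kdr (−1.66, adjusted p = 0.0123) and Nrp1 (2.81, adjusted p = 0.00773) between the control cells of the lines; Cdh5 was tested only with shPTN in E0771-LG and in the interaction.

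**Figure D3:**
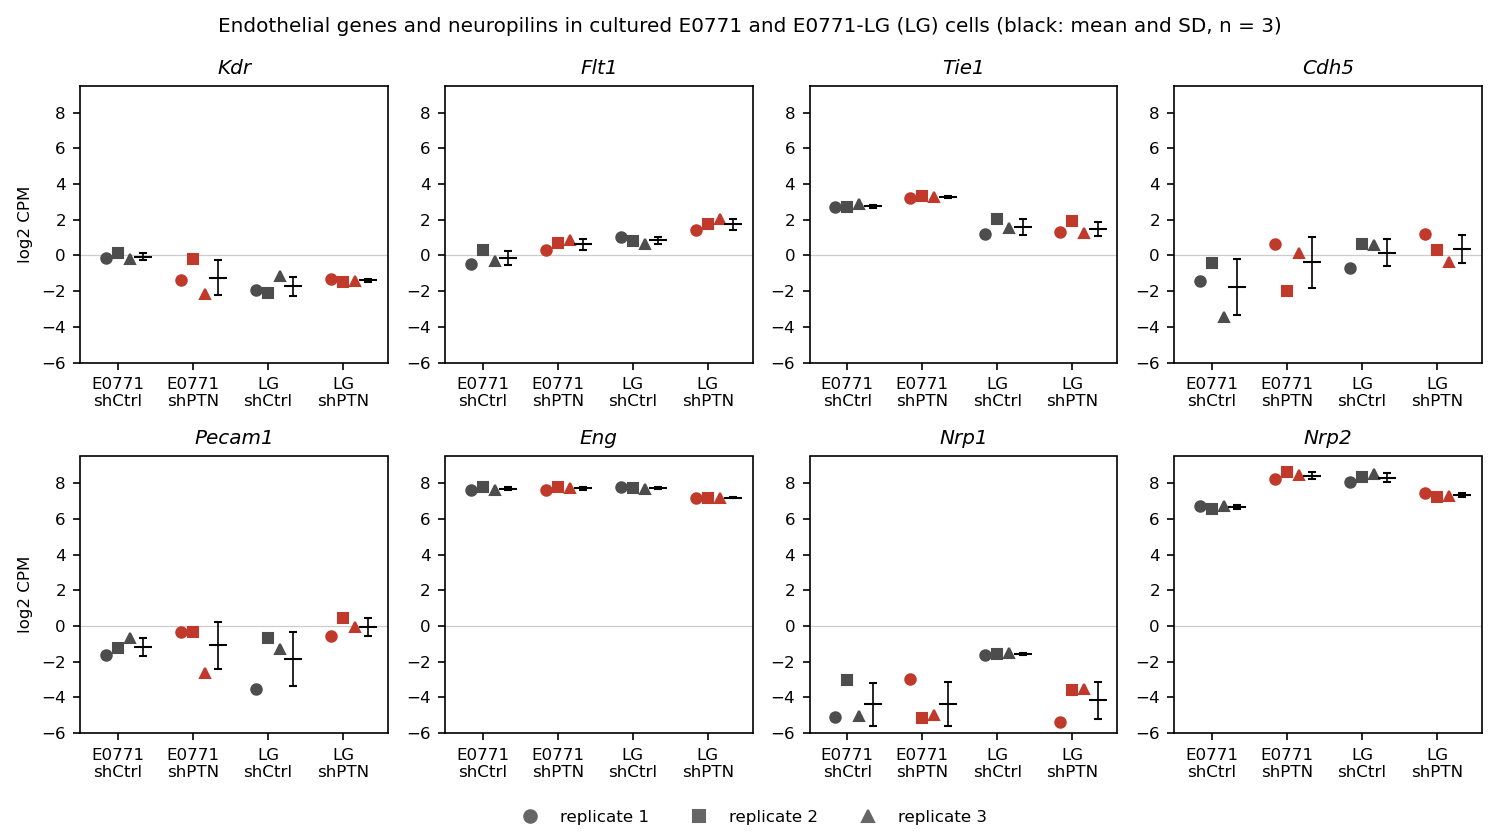
Log2 CPM of each of the 8 genes in each of the 12 cell samples (points, shaped by replicate number), with the mean and SD of each group of 3 in black; shCtrl in gray, shPTN in red, LG for E0771-LG. Eng and Nrp2 lie above 6 in every sample, and Nrp2 is higher with shPTN in E0771 and lower with shPTN in E0771-LG.

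Nrp2 moved in opposite directions in the lines when Ptn was knocked down. In E0771 cells it had 1853, 1892 and 1726 reads with shCtrl, or 6.75, 6.53 and 6.70 log2 CPM, and 5862, 7051 and 5426 reads with shPTN, or 8.25, 8.61 and 8.44. In E0771-LG cells it had 4622, 6445 and 6877 reads with shCtrl, or 8.06, 8.36 and 8.53 log2 CPM, and 3710, 2728 and 2723 reads with shPTN, or 7.46, 7.24 and 7.29. All 3 shPTN samples were above all 3 controls in E0771 and below all 3 in E0771-LG. The gene is ENSMUSG00000025969 at chr1:62703285-62818695 on the plus strand.

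The log2 fold change of Nrp2 with shPTN was 1.77 (SE 0.10, 95% interval 1.54 to 2.00) in E0771, a 3.41-fold rise (adjusted p = 3.83e-06, limma), and ranked 10 by p among 10394 genes. In E0771-LG it was −0.99 (SE 0.12, 95% interval −1.26 to −0.72), 1.99-fold lower (adjusted p = 0.000178, limma). The difference between the lines was itself tested, and the interaction term of −2.76 (SE 0.17, adjusted p = 2.27e-07, limma) ranked 3 by p among 10576 genes. These Nrp2 calls held whichever sample was left out and under all other alternatives tried, with changes between 1.68 and 1.86 in E0771, between −1.12 and −0.88 in E0771-LG and between −2.89 and −2.66 for the interaction.

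Eng fell in E0771-LG cells. Its log2 CPM was 7.80, 7.71 and 7.67 with shCtrl and 7.15, 7.20 and 7.18 with shPTN, so that every shPTN sample was below every control. In E0771 cells the values were 7.64, 7.78 and 7.65 with shCtrl and 7.61, 7.78 and 7.73 with shPTN, and the groups overlapped. The change was −0.55 (SE 0.09), or 1.46-fold lower, in E0771-LG (adjusted p = 0.00068, limma) and 0.01 (SE 0.08, 95% interval −0.17 to 0.20) in E0771 (adjusted p = 0.932, limma), where leaving out shCtrl replicate 1 or 3 or shPTN replicate 2 or 3 gave values between −0.02 and −0.000341. The interaction term was −0.56 (SE 0.11, adjusted p = 0.00206, limma). The gene is ENSMUSG00000026814 at chr2:32646595-32682669 on the plus strand, and its call in E0771-LG and in the interaction held under every alternative tried and whichever sample was left out, with changes between −0.58 and −0.45 and between −0.61 and −0.46.

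Tie1 and Flt1 passed the threshold narrowly, each in 1 line. Tie1 was at 2.72, 2.69 and 2.86 log2 CPM with shCtrl and at 3.22, 3.34 and 3.27 with shPTN in E0771, with no overlap, and at 1.19, 2.06 and 1.52 with shCtrl and 1.31, 1.94 and 1.25 with shPTN in E0771-LG, where the groups overlapped. Its change was 0.52 (SE 0.17, adjusted p = 0.0497, limma) in E0771 and −0.09 (adjusted p = 0.853) in E0771-LG, and the interaction of −0.61 did not pass (adjusted p = 0.213), but passed with quantile normalization at −1.08 (adjusted p = 0.0271). The E0771 call ended without any 1 of the 6 samples (adjusted p up to 0.139), and also with a replicate block (adjusted p = 0.0829), with voom weights (0.0508) and in a fit of all 24 samples (0.386). In E0771-LG the sign of the Tie1 difference turned without the second shCtrl sample (0.15), the first shPTN sample (0.00742) or the third shPTN sample (0.04).

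Flt1 had 12, 25 and 13 reads with shCtrl and 23, 29 and 28 with shPTN in E0771, and 35, 34 and 29 with shCtrl and 57, 60 and 70 with shPTN in E0771-LG. At these low counts every shPTN sample was above every control in E0771-LG, whereas the groups overlapped in E0771. Its change was 0.90 (SE 0.32, adjusted p = 0.0414, limma) in E0771-LG and 0.77 (SE 0.41, adjusted p = 0.209) in E0771, and the interaction of 0.13 did not pass (adjusted p = 0.863) and turned to −0.11, −0.04 and −0.01 without the second E0771 shCtrl, the first E0771 shPTN or the third E0771-LG shPTN sample. The E0771-LG call ended without replicate 2 or 3 of either group (adjusted p up to 0.155), with quantile normalization (0.215) and with a replicate block (0.0588). Cdh5 had 10, 30 and 27 reads with shCtrl and 48, 22 and 13 with shPTN in E0771-LG, a difference of 0.22 (adjusted p = 0.767, limma) that turned to −0.31 with quantile normalization, to −0.22 without the first shCtrl sample and to −0.19 without the first shPTN sample.

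In E0771 cells 2 of the 4 genes tested rose (Nrp2 and Tie1), beside 8.89% of all genes. None of the 4 fell in limma (0 at an unadjusted p under 0.05), beside 11.7% of all genes, and 20.6% of all genes passed in either direction. The 20.6% are 2140 genes, and that count ran from 1164 to 2139 without single samples and from 912 to 2450 under the other alternatives. In E0771-LG 1 of the 5 genes tested rose (Flt1) and 2 fell (Nrp2 and Eng), beside 24.3% of all genes higher and 22.1% lower, or 46.4% in all. The interaction passed for 2 of 5 genes, beside 34% of all genes. Many genes changed with the knockdown in both lines, and whether the shares of the genes described here differ from those of all genes was not tested.

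**Figure D4:**
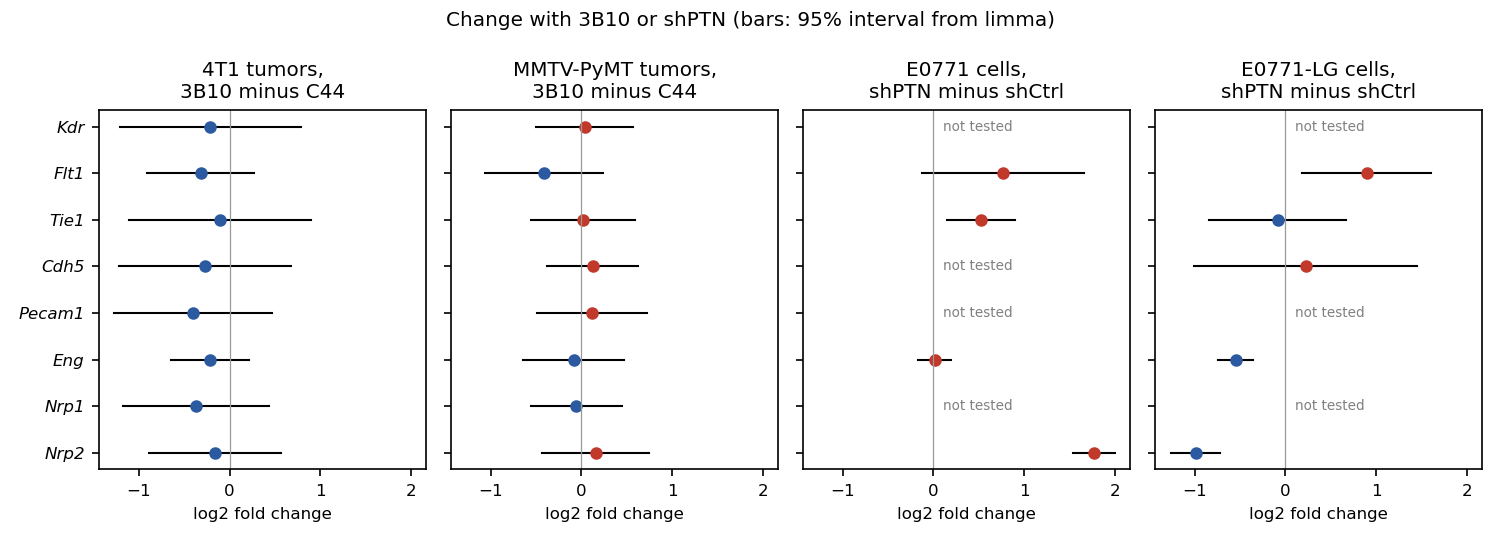
Log2 fold change (horizontal) of each gene with its 95% interval from limma in the 4 experiments, 3B10 minus C44 in tumors and shPTN minus shCtrl in cells, red above 0 and blue below. Intervals span 0 for all 8 genes in both tumor models, and Nrp2 lies at 1.77 in E0771 and −0.99 in E0771-LG.

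The lines also differed in their control cells. Nrp2 was higher in E0771-LG shCtrl than in E0771 shCtrl cells in all 3 samples, by a log2 difference of 1.66 (SE 0.13, 3.16-fold, adjusted p = 7.1e-06, limma). Its mean was 101 CPM with shCtrl and 347 CPM with shPTN in E0771, and 322 CPM with shCtrl and 161 CPM with shPTN in E0771-LG. Tie1 was lower in E0771-LG by −1.16 (SE 0.27, adjusted p = 0.00488, limma), a call that ended with quantile normalization (adjusted p = 0.059). Flt1 differed by 0.99 (SE 0.42, adjusted p = 0.068, limma) and passed with no filter on low values (adjusted p = 0.0465), with values plus 1 before the log (0.0459) and with quantile normalization (1.33, adjusted p = 0.0182). Eng differed by 0.04 (SE 0.09, adjusted p = 0.751), which turned to −0.00435 with quantile normalization and to −0.00115 without the first E0771-LG shCtrl sample. Thus 1 of 4 genes tested was higher and 1 lower past the threshold, beside 19.2% and 35.3% of all genes, or 54.5% in all. Quantile normalization moved the median of all genes in this comparison by 0.153 and the share of higher genes among those past the threshold from 35.3% to 51.4%. The shCtrl samples enter both this comparison and the knockdown comparisons.

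Other endothelial genes were also read from the cancer cells themselves. In E0771 19 of the 36 were tested, of which 7 rose and 1 fell with shPTN (42.1% beside 20.6% of all genes), with a median of 0.51 beside −0.03 over all genes in that comparison. Cav1, the caveolar coat protein, rose from 7.85 to 8.66 log2 CPM (change 0.81, adjusted p = 0.00041, limma), Apln, the ligand of the apelin receptor, from 3.45 to 4.68, and the junction gene Cgnl1 from 2.35 to 4.46 (change 2.12). Sele, the endothelial selectin, fell from 5.0 to 3.35 (change −1.65, adjusted p = 0.00171, limma). Ly6c1 rose by 1.26 (adjusted p = 0.00146, limma), and Cd93 from 7, 21 and 9 reads to 50, 63 and 42 (adjusted p = 0.00475, limma). In a fit of all 24 samples the calls of Cav1 (adjusted p = 0.0882), Sele (0.19), Ly6c1 (0.0994) and Cd93 (0.0507) ended.

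In E0771-LG cells 2 of 19 other endothelial genes rose and 7 fell with shPTN (47.4% beside 46.4% of all genes), with a median of −0.30 beside 0.05 over all genes. Sele fell from 5.58 to 3.93 log2 CPM (change −1.65, adjusted p = 1.54e-05, limma), a call that ended in a fit of all 24 samples (adjusted p = 0.0824). Arhgef15 fell from 5.27 to 4.37, Ecscr from 4.12 to 3.19, and Cd36, a fatty acid transporter, from 134, 167 and 94 reads to 7, 4 and 12. Cd36 passed the filter on low values through its 3 shCtrl samples alone, and its call held with no filter (adjusted p = 0.00152). Esam, a junction adhesion molecule, rose from 0.19 to 2.70 (adjusted p = 0.00133, limma) and Egfl7 from 2.77 to 4.17 (adjusted p = 0.000331, limma).

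The interaction passed for 9 of 22 other endothelial genes (40.9% beside 34% of all genes). Cd36 is among these, and outside its 3 E0771-LG shCtrl samples it lay at 0.51 log2 CPM or below in every cell sample. Its interaction call held under the alternatives other than leaving out samples (adjusted p up to 0.000956, limma). Apln changed by 1.23 in E0771 and −0.86 in E0771-LG (interaction −2.09, adjusted p = 0.000372, limma), and Arhgef15 by 0.61 and −0.90 (interaction −1.51, adjusted p = 0.000257, limma). Esam went the other way, at −0.64 (adjusted p = 0.0739) in E0771 and 2.51 in E0771-LG (interaction 3.15, adjusted p = 0.000721, limma). Sele changed by −1.65 in each line. Between the control cells 9 of 19 were higher and 5 lower in E0771-LG past the threshold (73.7% beside 54.5% of all genes). Sox7, an endothelial transcription factor, had 176, 294 and 196 reads in E0771 shCtrl cells and 0 in all 3 E0771-LG shCtrl samples, at least 74.6-fold lower against a floor of 3 reads per library. Of the genes counted, Sox7 passed the filter on low values through the 3 E0771 samples alone and Cd36 through the 3 E0771-LG samples alone. Both calls held under the alternatives other than leaving out samples (adjusted p up to 3.05e-05 and 0.000247, limma). Ecscr was 3.06 higher (adjusted p = 7.1e-06, limma), Icam2 3.20 higher and Ephb4 −0.93 in E0771-LG against E0771.

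Ligands of these receptors changed in both directions. Of 21 ligands 15 were in the table, and in E0771 4 of 12 tested rose and 1 fell with shPTN (41.7% beside 20.6% of all genes), with a median of 0.20. Angpt1, the angiopoietin that activates the Tie2 receptor, rose from 317, 213 and 214 reads to 768, 844 and 721 (change 1.70, adjusted p = 0.000224, limma). Tie2 is encoded by Tek, which was not in the table. Tgfb2 rose by 1.53, Vegfc, a growth factor of lymphatic vessels, by 1.24 and Vegfd by 1.21, and Tgfb1 fell from 5.96 to 4.96 log2 CPM (adjusted p = 0.00273, limma). The Vegfd call ended in a fit of all 24 samples (adjusted p = 0.481).

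In E0771-LG cells 2 of 13 ligands rose and 5 fell (53.8% beside 46.4% of all genes), with a median of −0.19. Angpt1 fell from 84, 107 and 87 reads to 39, 15 and 13 (change −2.22, adjusted p = 0.0012, limma). The semaphorin Sema3a, a ligand of neuropilins, fell from 7.29 to 6.29 log2 CPM (adjusted p = 7.87e-05, limma; 0.0549 in a fit of all 24 samples), and Sema3c from 176, 292 and 274 reads to 0, 3 and 1. Sema3c passed the filter on low values through its 3 shCtrl samples alone, and its call held with no filter (adjusted p = 0.00133). Tgfb3 rose by 1.76 (adjusted p = 0.00309, limma) and Vegfb by 0.46 (adjusted p = 0.0166), and Tgfb2 fell by 0.94 (adjusted p = 0.0164). The Vegfb and Tgfb2 calls ended without the third shCtrl, the second shPTN or the third shPTN sample, with adjusted p up to 0.0856 and 0.0704.

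The interaction passed for 7 of 13 ligands (53.8% beside 34% of all genes), with terms of −3.93 for Angpt1 (adjusted p = 2.14e-05, limma), −2.47 for Tgfb2 (0.000256), −2.01 for Vegfc (0.00116), −0.73 for Sema3a (0.0123) and 1.40 for Tgfb3 (0.00869, and 0.0575 with quantile normalization). The 7 include Sema3c, which passed the filter on low values through its 3 E0771-LG shCtrl samples alone. Its interaction call held under the alternatives other than leaving out samples (adjusted p up to 0.00152, limma). In control cells 5 of 13 ligands were higher and 7 lower past the threshold in E0771-LG than in E0771 (92.3% beside 54.5% of all genes), among them Sema3c at 1, 2 and 1 reads in E0771 against 176, 292 and 274, Sema3a at 5.59 against 7.29 log2 CPM, and Tgfb3 at 2.50 against −0.10. Here too Sema3c passed the filter on low values through the 3 E0771-LG shCtrl samples alone. Its call held under the alternatives other than leaving out samples (adjusted p up to 5.09e-05, limma). Vegfa averaged 6.01 and 6.04 in E0771 and 5.24 and 5.86 in E0771-LG with shCtrl and shPTN. Its change with shPTN did not pass the threshold in either line.

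**Figure D5:**
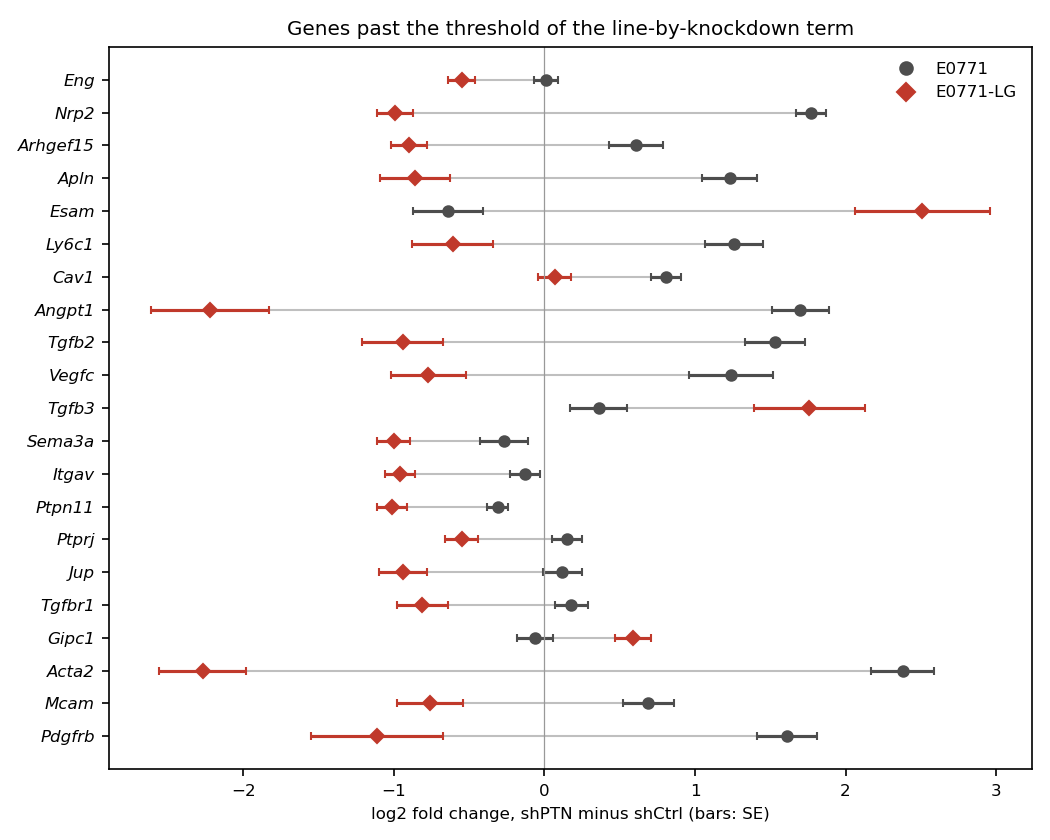
Log2 fold change (horizontal) with shPTN in E0771 (gray circles) and E0771-LG (red diamonds) with SE bars, for Eng, Nrp2 and named genes of the vessel lists whose interaction passed the threshold (vertical), without Sema3c, Cd36 and Cnn1, which were not tested in E0771. For Nrp2, Arhgef15, Apln, Angpt1, Tgfb2, Vegfc, Acta2 and Mcam the change passed the threshold in both lines, above 0 in E0771 and below 0 in E0771-LG, as in Angpt1 with 1.70 and −2.22.

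Among co-receptors and partners of the 8 genes more fell than rose past the threshold in each line. Of 23 such genes 21 were in the table, and 1 of 19 rose and 5 fell in E0771 (median −0.13), beside 8.89% of all genes higher and 11.7% lower, while 1 of 20 rose and 11 fell in E0771-LG (median −0.41), beside 24.3% and 22.1%. All 6 calls in E0771 ended in the fit of all 24 samples, whose error comes from tumors and cells together. In E0771-LG the integrin gene Itgav fell from 7.26 to 6.30 log2 CPM (adjusted p = 6.11e-05, limma), the phosphatase gene Ptpn11 from 7.68 to 6.67, the plexin genes Plxna1 from 7.49 to 6.81 and Plxna4 from 5.73 to 4.69, and the junction gene Jup from 5.37 to 4.43. Plexins are the signaling partners of neuropilins in the response to semaphorins. In E0771 the fibronectin receptor gene Itga5 fell from 7.41 to 6.82 (adjusted p = 0.00417, limma), and this call ended in a fit of all 24 samples (adjusted p = 0.187).

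The other 5 partners called in E0771 were Bmpr2, Plxna3, Ptpn11 and Plxna4, which fell, and Plxnd1, which rose. The fit of all 24 samples ended each of these 5 calls, and so did leaving out single samples, with adjusted p in limma up to 0.058 for Bmpr2 (without shCtrl replicate 2), 0.0612 for Plxna3 (shCtrl 2 or 3), 0.0859 for Ptpn11 (shCtrl 2 or 3 or shPTN 3), 0.128 for Plxna4 (shCtrl 2 or 3, shPTN 1 or 3) and 0.147 for Plxnd1 (shCtrl 1 or 3, shPTN 2 or 3). With no filter on low values the calls of Plxna4 (adjusted p = 0.0664) and Plxnd1 (0.0669) ended as well. The interaction passed for 8 of 20 partners (40% beside 34% of all genes), among them Itgav (−0.83, adjusted p = 0.000597, limma), Tgfbr1, a TGF-β receptor (−0.98, adjusted p = 0.00349), Jup (−1.06, adjusted p = 0.00262) and Gipc1, whose protein binds the tail of Nrp1 (0.64, adjusted p = 0.0114). In control cells 2 of 19 were higher and 5 lower in E0771-LG past the threshold (36.8% beside 54.5% of all genes), with Plxna3 at 5.94 in E0771 and 3.55 in E0771-LG and Acvrl1, a receptor for ligands bound by Eng, at 2.90 and 1.18.

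Where mural markers passed the threshold, they rose in E0771 and fell in E0771-LG. Of 14 markers 12 were in the table, and 4 of 4 tested rose in E0771 (median 1.46), beside 8.89% of all genes, while 0 of 6 rose and 4 fell in E0771-LG (median −1.55), beside 22.1% of all genes lower. Their summed CPM in E0771 was 62.0, 57.7 and 59.0 with shCtrl and 195, 269 and 202 with shPTN, with Acta2, smooth muscle actin, the most abundant. In E0771-LG it was 86.1, 73.4 and 70.5 with shCtrl and 23.3, 31.1 and 30.2 with shPTN, with Acta2 or Pdgfrb the most abundant. Kcnj8, a marker of pericytes, was at 0 reads in all 6 E0771 samples. The part of these markers in the change of Nrp2 and Eng was not tested.

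Acta2 had 695, 488 and 505 reads with shCtrl and 2643, 3798 and 2224 with shPTN in E0771, and 931, 467 and 666 with shCtrl and 174, 159 and 98 with shPTN in E0771-LG. Its change was 2.38 in E0771 (adjusted p = 0.000226, limma) and −2.27 in E0771-LG (adjusted p = 0.000463), with an interaction of −4.64 (adjusted p = 3.02e-05). Pdgfrb rose by 1.61 in E0771 (adjusted p = 0.000469, limma) and had a change of −1.11 in E0771-LG that did not pass (adjusted p = 0.0801), with an interaction of −2.72 (adjusted p = 0.00202). Des rose in E0771 (1.32, adjusted p = 0.00763, limma; 0.0809 in a fit of all 24 samples). Mcam changed by 0.69 and −0.76 (interaction −1.45, adjusted p = 0.000929, limma), where the E0771 call ended without the third shPTN sample (adjusted p = 0.0747) and in a fit of all 24 samples (0.107) and the E0771-LG call ended without the third shCtrl or second shPTN sample (up to 0.0656).

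In E0771-LG the contractile gene Cnn1 fell from 88, 71 and 88 reads to 15, 17 and 20 (adjusted p = 0.000656, limma), and Rgs5 from 42, 103 and 65 to 27, 16 and 10 (adjusted p = 0.004, and 0.0901 in a fit of all 24 samples). The interaction passed for 4 of 6 mural markers (66.7% beside 34% of all genes). The 4 include Cnn1, which was too low for the filter in E0771 and entered through its E0771-LG samples. Its interaction call held under the alternatives other than leaving out samples (adjusted p up to 0.00619, limma). In control cells 3 of 6 were higher in E0771-LG and 1 lower past the threshold (66.7% beside 54.5% of all genes). Of those higher, Cnn1 and Rgs5 passed the filter on low values through the 3 E0771-LG samples alone, and their calls held with no filter (adjusted p = 0.00238 and 0.00273). The share in control cells counts both, so it does not describe mural markers above the filter in both lines.

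Markers of other cell types also changed in the cell lines, where 20.6% of all genes passed in E0771 and 46.4% in E0771-LG. Fibroblast markers rose for 4 and fell for 1 of 6 tested in E0771, and rose for 2 and fell for 2 of 7 in E0771-LG. Of those that fell in E0771-LG, Col1a1 averaged 3.4 log2 CPM with shCtrl and −1.28 with shPTN. It passed the filter on low values through its 3 shCtrl samples alone. Leukocyte markers rose for 3 of 7 in E0771 and rose for 2 and fell for 3 of 8 in E0771-LG. Of 13 epithelial markers, 4 were tested in E0771-LG and 4 rose with a median of 1.66, and 0 of 3 tested in E0771 passed in limma (1 at an unadjusted p under 0.05). Of the 4, Krt18 averaged −0.2 log2 CPM with shCtrl and 2.79 with shPTN. It passed the filter on low values through its 3 shPTN samples alone. The summed CPM of the epithelial markers was 160, 207 and 168 with shCtrl and 430, 574 and 525 with shPTN in E0771-LG, with Krt8 the most abundant and Cldn3 at 0 in all 6 samples. Their part in the change of Nrp2 and Eng was not tested. Muscle markers rose for 1 of 2 in E0771 and fell for 1 of 2 in E0771-LG, and of 3 adipocyte markers 0 passed in E0771 (0 at an unadjusted p under 0.05) and 1 fell in E0771-LG.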

How the data were processed

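RNA was measured by sequencing in 12 tumors and 12 cell samples. The authors used Hisat2 for alignment to mm10, featureCounts for counting and edgeR for testing, and deposited log2 expression values for 12091 genes. In 18 samples 100% of values came out as whole reads within 0.1 reads (log2 CPM, offset 0.5). The difference of 4T1 from E0771-LG values fell with log2 exon length (slope −0.684, beside 0.17 for MMTV-PyMT and 0.145 for E0771), so these were treated as length-normalized. Each comparison was fitted with limma 3.58.1 in R 4.3.3 (eBayes with trend and robust, two-sided), for genes whose unlogged value exceeded the sample's lowest by at least 1 in at least 3 samples, with Benjamini-Hochberg adjustment over all genes tested. Named beside the members were, from each list, at most 6 genes past the threshold or, where fewer than 3 passed, the most abundant until 3, and the genes most alike over tumors. Members and lists were chosen with earlier results of these data known. Alternatives were filters, scalings, pseudocounts of 1 and 0.1, voom, a replicate block, a fit of all 24 samples and leaving out each sample. Exon lengths are from GENCODE M21, promoters from RefSeq. Floors cover counting error only.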

Additional observations from a re-analysis of the deposited data

Results flagged for a closer look

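The change of 2 genes with Ptn knockdown differed between the cell lines by the interaction term of limma, E0771-LG minus E0771. For Nrp2 the term was −2.76 on the log2 scale (adjusted p = 2.27e-07), with all shPTN samples above the controls in E0771 and all below them in E0771-LG. For Eng it was −0.56 (adjusted p = 0.00206), with all shPTN samples below the controls in E0771-LG and overlapping groups in E0771.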

How the results depend on the processing

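Under the alternatives other than leaving out samples, 1005 log2 fold changes kept their direction and side of the threshold, 26 no longer passed, 4 newly passed and 6 changed direction. With single samples left out 877 kept both, 33 no longer passed and 35 changed direction. The number of members past the threshold in E0771 was 1 in place of 2 with the replicate block, with the fit of all 24 samples and with voom weights, and 1 with any single sample left out. Between the control cells of the lines it was 5 in place of 2 with no filter on low values. Flt1, tested in the main fit as well (adjusted p = 0.068), passed at 0.0465, and Kdr (−1.66, adjusted p = 0.0123) and Nrp1 (2.81, adjusted p = 0.00773), which the filter had removed, passed too. In E0771-LG it was 4 in place of 3 with no filter, with Nrp1 added (−2.59, adjusted p = 0.0132), and 2 with quantile normalization and with the replicate block. Between control cells Flt1 also passed with values plus 1 before the log (0.0459) and with quantile normalization (0.0182), which gave 3 members in place of 2 in the interaction, with Tie1 newly past the threshold (−1.08, adjusted p = 0.0271). With quantile normalization the changes were −0.034 for Kdr and −0.0446 for Tie1 in MMTV-PyMT tumors, −0.31 for Cdh5 in E0771-LG and −0.00435 for Eng between control cells. With median-of-ratios scaling Kdr was at −0.0156 and Tie1 at −0.0326 in MMTV-PyMT tumors. The cause was not tested. The changes of sign given are those of differences that did not pass the threshold.

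With single samples left out, the 4T1 differences ranged from −0.63 to 0.10 for Cdh5, −0.64 to 0.13 for Kdr, −0.51 to 0.22 for Tie1 and −0.54 to 0.0459 for Nrp2. In MMTV-PyMT tumors they ranged from −0.11 to 0.32 for Pecam1, −0.0453 to 0.28 for Cdh5, −0.14 to 0.18 for Kdr, −0.14 to 0.20 for Tie1, −0.28 to 0.11 for Eng, −0.21 to 0.0676 for Nrp1 and −0.0265 to 0.40 for Nrp2. The ranges were −0.022 to 0.0626 for Eng in E0771, −0.22 to 0.60 for Cdh5 and −0.31 to 0.15 for Tie1 in E0771-LG, −0.00115 to 0.0797 for Eng between control cells and −0.11 to 0.29 for Flt1 in the interaction.

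Among all genes, the fit of all 24 samples, which joins values on different scales, gave 912 genes past the threshold in E0771 in place of 2140, and 6 in 4T1 in place of 0. Leaving out shCtrl replicate 2, shCtrl replicate 3 or shPTN replicate 3 gave 1268, 1164 and 1220 in E0771, and leaving out the second shPTN sample gave 3206 in E0771-LG in place of 4826. Without C44 replicate 3 or 3B10 replicate 2 of MMTV-PyMT, 4 and 1 genes passed in the interaction of 3B10 with the model. Replicate numbers were not shown to pair samples of different groups. In no experiment was the correlation of deviations above 0.1 for every pair. For single pairs it reached 0.436 in 4T1 and 0.237 in E0771-LG, and a shared batch was not tested. Genes at few reads limit what the cell samples can show.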
